A study of Mus musculus with 9 samples.

Results

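The 10 genes described here encode 9 regulators of transcription in red blood cell precursors (Gata1, Klf1, Tal1, Lmo2, Ldb1, Nfe2, Zfpm1, Gfi1b and Bcl11a) and the receptor for erythropoietin (Epor). They were picked by gene symbol, and all 10 were found among the 56980 genes of the deposited table. RNA of 9 wild-type C57BL/6 mice was sequenced, 5 aged mice (20 months old) and 4 young mice (3 months old), with ageing as the only difference that the labels give. The series asks which genes differ with age in a study of netrin-4 and sensory nerves in bone. Its design text calls the mice female, the tissue is labelled bone marrow, and the extraction protocol names trabecular bone ground up whole, so that every cell type of the tissue contributed RNA. Each library is labelled as a biological replicate, and libraries are named below by group and number.

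GATA1 and its cofactor FOG1 (encoded by Zfpm1) switch on globin, heme and membrane genes while red cell precursors mature. GATA1 also binds DNA together with TAL1, LMO2 and LDB1, where the last holds distant enhancers and promoters in contact. KLF1 (EKLF) binds CACC-type sites of the same genes, NF-E2 (its large subunit encoded by Nfe2) acts on globin and platelet genes, and GFI1B and BCL11A recruit corepressors, BCL11A being known for silencing embryonic and fetal-type globin genes. Erythropoietin, a hormone made mainly in the kidney, binds EPOR on early precursors and keeps them alive through JAK2 and STAT5.

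Promoter sequences were looked at because several of these regulators are known to act on each other's genes. RefSeq (build GRCm38.p6) gave 11 promoters for 8 of the genes, and the 250 bases before each transcription start were searched on both strands for the letters GATA with A or T just before and A or G just after them, the form that GATA factors bind. A GATA word was found in 5 of the 11 promoters, against 26.5% of 32536 mouse promoters. A CACC-type word, CCNCNCCC, was found in 9 of the 11 (in 7 of the 8 genes), against 46.2% of all promoters, and no GATA match overlapped a CACC match. G and C made up 44.4% (Gfi1b) to 76% (Ldb1) of the bases in these 11, against a median of 52.4% over all promoters. The part of base composition in the share with this C-rich word was not tested. A match describes the letters only. The promoters of Klf1, Epor and Gfi1b are shown because each holds a GATA word and because these genes had 3 of the 4 lowest aged-to-young ratios below. That of Gata1 is shown for contrast, since it holds no such word. Capitals mark the GATA words or their reverse complements, and each line reads 5′ to 3′ on the gene's strand. They lie at chr8:84901732-84901981 (plus strand), chr9:21963577-21963826 (minus strand), chr2:28621983-28622232 (minus strand) and chrX:7967911-7968160 (minus strand).
Klf1: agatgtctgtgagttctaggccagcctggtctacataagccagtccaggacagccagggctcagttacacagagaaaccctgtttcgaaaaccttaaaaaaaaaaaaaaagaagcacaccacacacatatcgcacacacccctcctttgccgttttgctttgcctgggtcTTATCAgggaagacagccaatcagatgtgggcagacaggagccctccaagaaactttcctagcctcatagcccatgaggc
Epor: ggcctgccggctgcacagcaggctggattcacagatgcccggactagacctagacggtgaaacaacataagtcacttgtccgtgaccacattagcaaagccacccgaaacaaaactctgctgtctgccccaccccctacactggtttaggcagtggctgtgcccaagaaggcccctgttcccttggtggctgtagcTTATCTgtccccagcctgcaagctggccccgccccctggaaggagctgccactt
Gfi1b: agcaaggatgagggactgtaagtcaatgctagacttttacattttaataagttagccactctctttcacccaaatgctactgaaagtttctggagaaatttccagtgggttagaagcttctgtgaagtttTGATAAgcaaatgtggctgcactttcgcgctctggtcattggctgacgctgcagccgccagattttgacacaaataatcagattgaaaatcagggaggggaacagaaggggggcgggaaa
Gata1: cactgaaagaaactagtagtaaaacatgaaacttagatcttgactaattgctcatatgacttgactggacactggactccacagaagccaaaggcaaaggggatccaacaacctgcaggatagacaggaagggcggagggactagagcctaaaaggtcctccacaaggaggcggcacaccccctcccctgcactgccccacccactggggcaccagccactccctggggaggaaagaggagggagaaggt
The match began 80 bases before the start of transcription in Klf1, 54 in Epor and 120 in Gfi1b. Tal1 and Ldb1 had matches in 1 of their promoters each, while the 250 bases of Zfpm1 and Bcl11a held none. Of the 10 genes, Zfpm1 had the lowest aged-to-young ratio of mean levels (39.5%) and Ldb1 the highest (79.3%). Whether a GATA word goes with the size of the age difference was not tested.

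Library totals were 19804883 to 23548594 estimated counts, and each member had at least 234 counts in every library. Aged 3, aged 4 and young 4 stood apart from the other 6 libraries: 6.16% to 7.34% of their counts came from ribosomal protein genes, against 3.19% to 3.45% in the other 6. Values are therefore given with and without these 3, called the 3-library set. Hemoglobin genes took 0.697% to 16.1% of counts in aged and 6.98% to 21.8% in young libraries, highest in aged 3 and young 4. Without the 3-library set the shares were 0.697% to 3.75% in aged and 6.98% to 9.16% in young libraries. Xist, expressed from the inactive X chromosome, had 7909 to 21724 counts in aged 1 to 4, against 1 to 9 counts in aged 5 and young 1 to 4. The Y-linked Ddx3y and Eif2s3y had 0 counts in aged 1 to 4 and 888 to 1912 counts in each of the other 5 libraries, which goes against the design text's female mice. Age and this difference coincide except in aged 5 and otherwise cannot be told apart. Aged 5 is therefore given its own values for the members and for the other genes whose fold change is printed. Red cell, neutrophil and B lineage markers, as the marrow label has it, were all detected, except Ahsp. The symbol of this red cell marker was not found among the deposited genes. Bone-forming cell markers were present too, at a summed 405 to 2869.5 CPM in aged and 2646 to 6996 CPM in young libraries.

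All 10 genes had lower mean levels in aged than in young marrow, by log2 fold changes of −0.33 (Ldb1) to −1.34 (Zfpm1), or −0.13 (Nfe2 and Ldb1) to −1.51 (Zfpm1) when young 4 was left out. None passed a test across all genes on age alone, and Gfi1b was the 1 gene whose aged and young libraries did not overlap, as in 2.76% of the genes tested. Among the 6 libraries outside the 3-library set, every aged value lay below every young value for all 10, as in 16.6% of genes. Levels are given as CPM, counts scaled to the library's total with TMM factors. Gata1, the factor at the centre of the group, had 32.8, 55.1, 138, 85.5 and 73.6 CPM in aged 1 to 5, against 104, 114, 101 and 228 CPM in young 1 to 4. The lowest 2 values were aged 1 and aged 2, young 4 was by far the highest, and aged 3 lay above young 1 to 3, so the groups overlapped. Means were 77.1 ± 39.6 in aged and 136 ± 61.2 in young libraries (CPM, SD, n = 5 and 4), and the log2 fold change, aged over young throughout, was −0.82 (SE 0.405, edgeR adjusted p = 0.641). Without young 4 it was −0.46. Zfpm1, which encodes the cofactor that GATA1 needs in red cell and platelet precursors, had 59.6, 97.8, 25.6, 12.2 and 114 CPM in aged 1 to 5, against 173, 177, 177 and 98.9 CPM in young 1 to 4. Here the 3-library set was lowest within each age, the reverse of Gata1, and aged 5 lay above young 4, so the groups overlapped. Its log2 fold change was −1.34 (SE 0.558, edgeR adjusted p = 0.523), the most negative of the 10.

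Tal1, Lmo2 and Ldb1 encode the partners of GATA1 on DNA: a basic helix-loop-helix factor, a bridging protein without DNA contact of its own, and the protein that joins distant complexes. Tal1 had 73.6, 113, 203, 84.0 and 142 CPM in aged 1 to 5, against 186, 198, 200.4 and 204 CPM in young 1 to 4. The 4 young libraries lay close together and all aged libraries but aged 3 lay below them. Its log2 fold change was −0.68 (SE 0.288, edgeR adjusted p = 0.533). Lmo2 had 112, 104, 246, 192 and 124 CPM in aged 1 to 5, against 163, 177, 181 and 338 CPM in young 1 to 4. Aged 3 and aged 4 exceeded young 1 to 3 but not young 4, so the groups overlapped, and the log2 fold change was −0.46 (SE 0.328, edgeR adjusted p = 0.87). Without young 4 it was −0.16. Ldb1, which is expressed far beyond blood cells, had 90.2, 93.1, 135, 122 and 99.5 CPM in aged 1 to 5, against 118, 125.6, 111 and 190.0 CPM in young 1 to 4. Its difference was the smallest of the 10, with a log2 fold change of −0.33 (SE 0.219, edgeR adjusted p = 0.83), and of −0.13 without young 4. Aged 3 and aged 4 again lay among the young libraries.

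Klf1, the factor most specific to red cell precursors, had 31.1, 69.6, 166, 51.3 and 77.9 CPM in aged 1 to 5, against 137, 173, 150.2 and 204 CPM in young 1 to 4. Aged 3 was the one aged library above a young one, and aged 1 the lowest of all. Means were 79.2 ± 51.8 in aged and 166 ± 29.6 in young libraries (CPM, SD, n = 5 and 4), with a log2 fold change of −1.07 (SE 0.412, edgeR adjusted p = 0.468). Epor, through which the hormone acts on precursors, had 15.4, 33.2, 65.6, 23.8 and 45.6 CPM in aged 1 to 5, against 62.1, 72.3, 59.5 and 97.6 CPM in young 1 to 4. As for Klf1, aged 1 and aged 4 were lowest and young 4 highest, and aged 3 lay among the young libraries. Means were 36.7 ± 19.7 in aged and 72.9 ± 17.4 in young libraries (CPM, SD, n = 5 and 4), with a log2 fold change of −0.99 (SE 0.378, edgeR adjusted p = 0.466).

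Nfe2, which red cell precursors share with megakaryocytes and myeloid cells, had 148, 141, 271, 295 and 204 CPM in aged 1 to 5, against 223, 226, 247 and 431 CPM in young 1 to 4. Aged 3 and aged 4 lay above young 1 to 3, and the log2 fold change was −0.41 (SE 0.306, edgeR adjusted p = 0.89), or −0.13 without young 4. Gfi1b, a repressor needed in red cell and platelet precursors, had 21.1, 37.4, 49.0, 21.0 and 40.6 CPM in aged 1 to 5, against 58.7, 70.0, 59.4 and 68.2 CPM in young 1 to 4. Every aged value lay below every young value, and aged 1 and aged 4 were lowest. Means were 33.8 ± 12.4 in aged and 64.1 ± 5.86 in young libraries (CPM, SD, n = 5 and 4), and the log2 fold change was −0.92 (SE 0.271, edgeR adjusted p = 0.34). Bcl11a, which is also needed by B lineage and plasmacytoid dendritic cells, had 35.0, 35.2, 53.6, 32.7 and 34.2 CPM in aged 1 to 5, against 51.2, 51.4, 49.3 and 49.9 CPM in young 1 to 4. Apart from aged 3, the aged libraries lay within a few CPM of each other and below all young ones, and the log2 fold change was −0.41 (SE 0.183, edgeR adjusted p = 0.572).

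**Figure D1:**
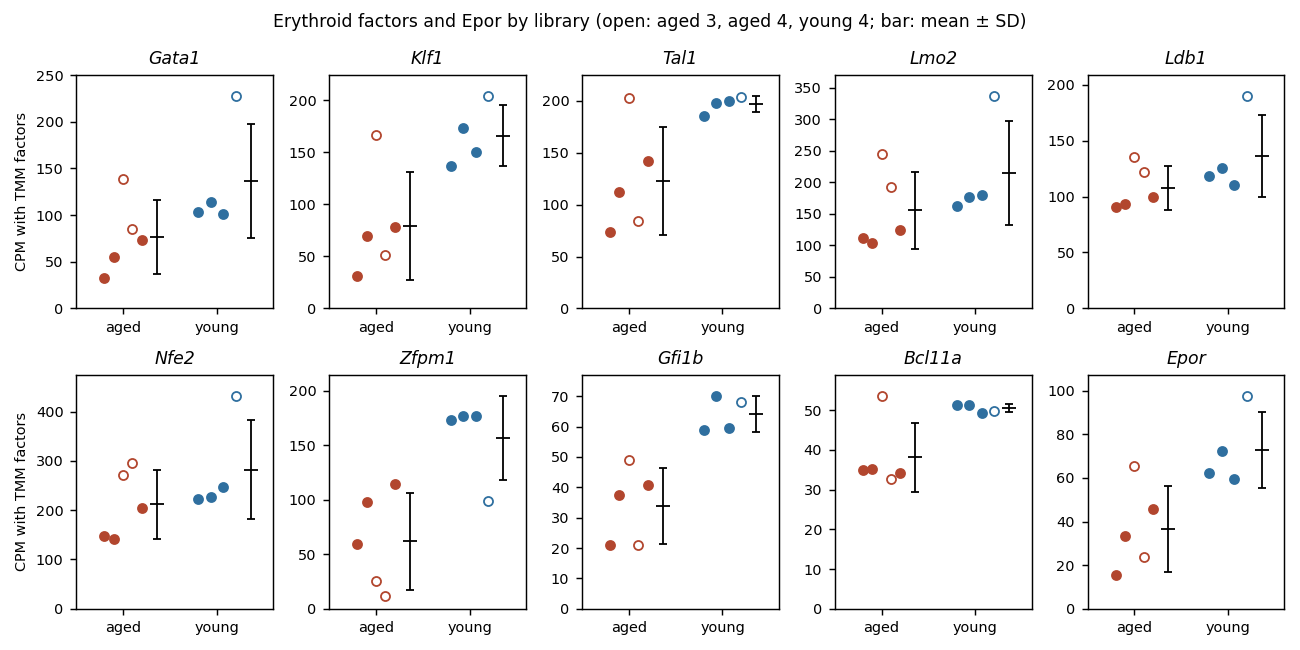
Levels of the 10 genes in each library, in CPM with TMM factors, aged libraries left of young ones. Open circles are aged 3, aged 4 and young 4, and bars are the mean ± SD. Young 4 was the highest of the 9 libraries for 7 genes, whereas Zfpm1 was lowest in aged 3 and aged 4, at 25.6 and 12.2 CPM.

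No member passed the age comparison over all 9 libraries, in which edgeR's quasi-likelihood test with Benjamini-Hochberg adjustment called 0% of 16576 genes (0 genes, smallest adjusted p = 0.255). At an unadjusted p under 0.05, 688 genes were higher and 769 lower in aged libraries, and DESeq2 called 360 genes (1.01% of genes lower), none of them a member. limma-voom called none. All 10 log2 fold changes were below 0, with a median of −0.75, against 46.5% of all genes below 0 and a median of 0.03 over all genes. An unadjusted p under 0.05 with a lower aged level was found for 5 of the 10 (Klf1, Tal1, Zfpm1, Gfi1b and Epor), against 4.64% of all genes. In the authors' deposited table, the log2 fold changes of the members were −0.32 (Ldb1) to −1.32 (Zfpm1), and their adjusted p-values were 0.116 (Gfi1b) to 0.885 (Nfe2). That table called 125 genes lower in aged libraries, 0.219% of all its 56980 genes. Of these, 26485 had no count in any library, so this share is not comparable with those of the 16576 genes tested. In bulk tissue, fewer red cell precursors and less RNA of these genes per precursor cannot be told apart.

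With the 3-library set as a term in the model, Lmo2 fell in aged marrow, with a log2 fold change of −0.62 (SE 0.110, edgeR adjusted p = 0.0405). The other 9 did not pass, and 1.31% of genes were called lower. All 10 lay below 0 (48.9% of genes) with an unadjusted p under 0.05 (10.2% of genes). The call on Lmo2 ended under 9 of 21 other settings, among them each omission of 1 library other than aged 3 and aged 5; its adjusted p ranged from 6.74e-05 to 0.177. The next smallest adjusted p-values were those of Zfpm1, at −1.42 (SE 0.316, edgeR adjusted p = 0.0572), and Gata1, at −0.99 (SE 0.224, edgeR adjusted p = 0.0586). Nfe2 had a log2 fold change of −0.53 (SE 0.130, edgeR adjusted p = 0.069) and Ldb1 of −0.40 (SE 0.0968, edgeR adjusted p = 0.0687). Gfi1b had one of −0.94 (SE 0.257, edgeR adjusted p = 0.0901) and Klf1 one of −1.23 (SE 0.357, edgeR adjusted p = 0.103). Epor, at −1.07 (SE 0.337, edgeR adjusted p = 0.125), and Bcl11a, at −0.44 (SE 0.147, edgeR adjusted p = 0.141), were further from the threshold, and Tal1 furthest, at −0.73 (SE 0.264, edgeR adjusted p = 0.171). How many members passed depended on single libraries: 10 passed without aged 3, 4 without aged 5 and 0 without any other library. Without aged 3, 6.4% of all genes were called lower, and without aged 5, 2.42% were. DESeq2 with the same term called 8 members and 5.48% of genes lower, limma-voom 2 members and 1.8% of genes, and edgeR with no filter on low counts 6 members and 1.92% of genes.

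**Figure D2:**
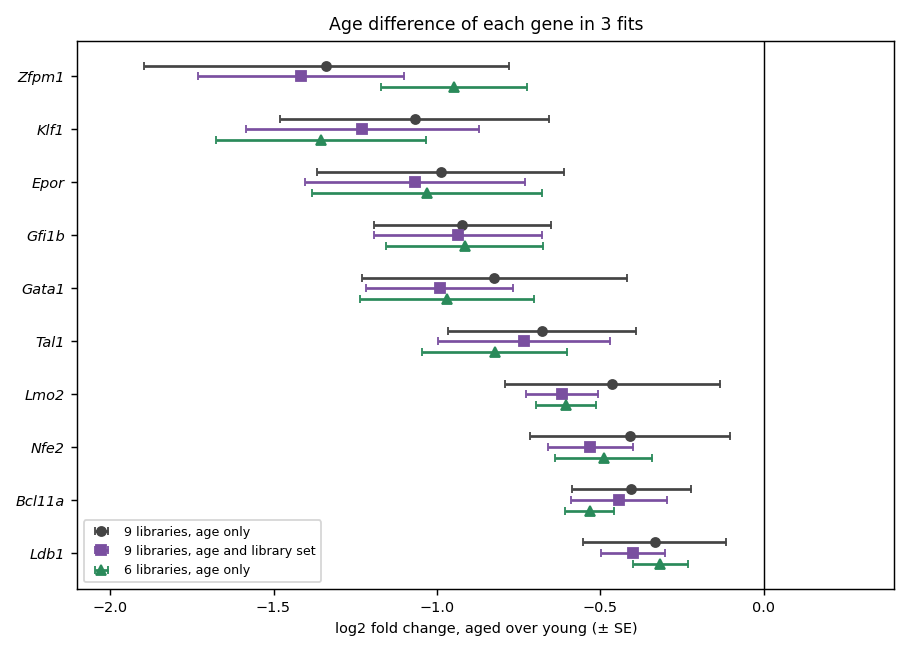
Log2 fold changes (aged over young) of the 10 genes from the fit on age alone, the fit with the 3-library set as a term, and the fit within the other 6 libraries; bars are standard errors and the line marks 0. All 30 values lay below 0, from −0.32 for Ldb1 within the 6 libraries to −1.42 for Zfpm1 with the term.

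In the 6 libraries outside the 3-library set, the 2 ages separated for every member: aged 1, 2 and 5 all lay below young 1 to 3 for 10 of 10, against 16.6% of genes. Gata1, for example, averaged 53.8 ± 20.4 CPM in these aged and 106 ± 6.72 CPM in these young libraries (SD, n = 3 each). Log2 fold changes refitted on these 6 were −1.35 for Klf1, −1.03 for Epor, −0.97 for Gata1 and −0.95 for Zfpm1. That of Gfi1b was −0.92, and that of Ldb1, at −0.32, was again nearest to 0. All 10 lay below 0, against 46.7% of genes. The edgeR adjusted p-values were 0.0694 to 0.140, so no member passed, and 0% of genes were called lower and 0.012% higher. An unadjusted p under 0.05 with a lower level was reached by all 10, against 11.9% of genes. Aged 5, the aged library that shares its Y-linked transcripts with the young ones, lay below each of young 1 to 3 for 10 of 10 members, against 31.7% of genes. Its log2 difference from the mean of those 3 was −0.19 for Nfe2 and −0.97 for Klf1, the smallest and the largest of the 10.

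Within the 3-library set, which has 1 young library and is described by values alone, aged 3 and aged 4 both lay below young 4 for 9 of 10 members, against 32.1% of genes. Bcl11a was the exception, at 53.6 CPM in aged 3 and 32.7 CPM in aged 4, against 49.9 CPM in young 4. Tal1 was nearly equal in aged 3 and young 4, at 203 and 204 CPM. For Epor, aged 3 and aged 4 had 65.6 and 23.8 CPM, against 97.6 CPM in young 4. An interaction term over all 9 libraries asked whether the age difference itself differed between the sets. No member passed it, the smallest unadjusted p being that of Zfpm1, with an interaction of −1.44 on the log2 scale (unadjusted p = 0.0265, edgeR adjusted p = 0.925). Exact two-sided permutation tests on the log2 CPM of single members, not adjusted over genes, gave p-values over all arrangements of the 9 libraries of 0.0159 for Gfi1b, 0.0317 for Klf1, 0.0397 for Zfpm1, and 0.0476 for Tal1, Bcl11a and Epor. For Gata1, Ldb1, Lmo2 and Nfe2 they were 0.103, 0.143, 0.206 and 0.238. The smallest p that these arrangements allow is 0.00794. When arrangements were drawn only within the library sets, the smallest of 60 allowed being 0.0167, the exact permutation p was 0.0167 for Gata1, Lmo2, Ldb1, Nfe2 and Zfpm1. It was 0.0333 for Klf1, Gfi1b and Epor, and 0.05 for Tal1 and Bcl11a.

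**Figure D3:**
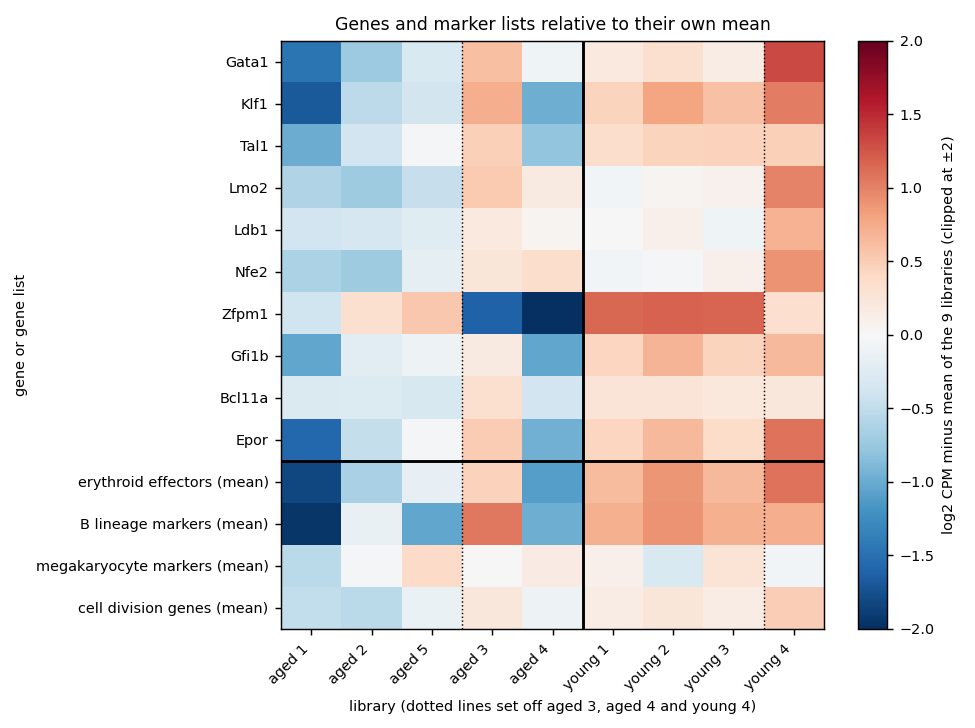
Log2 CPM of each gene, and mean over the genes of 4 lists, relative to the mean of the 9 libraries (colour, clipped at ±2), aged libraries left of young ones, with dotted lines setting off aged 3, aged 4 and young 4. Aged 1 lay below the mean for all 10 genes, and Zfpm1 was lowest in aged 3 and aged 4, at 25.6 and 12.2 CPM.

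How the 3-library set differed from the other 6 depended on the scale. On CPM with TMM scaling, young 4 lay above the mean of young 1 to 3 for 8 of 10 members. On CPM by library totals this held for 4 members, and on the deposited TPM for 0. Likewise aged 3 and aged 4 averaged above aged 1, 2 and 5 for 9 members on TMM-scaled CPM, for 6 by library totals and for 1 on TPM. TPM divide by gene length, but a length shared by all libraries cannot alter how they compare for a gene. Young 4 minus young 1 to 3 (log2) was −0.52 by totals and −1.52 on TPM for Gfi1b. For Bcl11a it was −0.67 by totals and −0.44 on TPM. Why the scales differ was not tested. TMM factors were 0.704 in young 4, 0.823 in aged 3 and 0.862 in aged 4, against 1.09 to 1.17 in the other 6 libraries. Zfpm1 was lower in the 3-library set on all 3 scales: young 4 minus young 1 to 3 was −0.83, −1.47 and −2.33 on the log2 scale (TMM-scaled CPM, CPM by totals, TPM), and aged 3 and 4 minus aged 1, 2 and 5 was −2.30, −2.74 and −3.22. Zfpm1 transcripts have a GC content of 66.8%, higher than that of 99.9% of the genes with a value, against 61.0% for Klf1, 59.6% for Epor and 55.2% for Gata1. GC content was above that of 97.3% of genes for Klf1 and 94.3% for Epor. On TMM-scaled counts their log2 differences between the sets were 0.70 (SE 0.369, edgeR adjusted p = 0.146) and 0.54 (SE 0.350, edgeR adjusted p = 0.231). On TPM both were lower in the 3-library set. Of 10 bins of genes by GC content, the highest spanned 58.2% to 74.2%. Its median difference between the sets was −0.09 on TMM-scaled counts, against −1.64 for Zfpm1. The part of GC content in these values was not tested. The mean age difference over the 9 libraries was below 0 for all 10 members on each of the 3 scales. In the 6 libraries the ages separated for 10 members on either CPM scale (13.3% of genes by library totals) and for 9 on TPM (8.58% of genes), with Ldb1 as the exception. Aged 3 and aged 4 both lay below young 4 for 8 members by library totals (17.5% of genes) and for 8 on TPM (12% of genes). Tal1 and Bcl11a were the exceptions on both of these scales. Over all 9 libraries, aged values all lay below young values on CPM by library totals for 4 members (Klf1, Ldb1, Gfi1b and Epor; 1.82% of genes), and on TPM for Gata1 and Klf1 (0.959% of genes). Gata1 had 30.9, 39.3, 49.5, 37.3 and 56.2 TPM in aged 1 to 5, against 78.1, 77.0, 71.3 and 68.4 TPM in young 1 to 4, a gap that neither CPM scale showed. The exact two-sided permutation p for Gata1 was 0.0159 on log2(TPM + 1), 0.0238 on CPM by library totals and 0.103 on TMM-scaled CPM. Klf1 had 36.6, 63.2, 74.0, 28.8 and 74.1 TPM in aged 1 to 5, against 132, 149.6, 133 and 78.3 TPM in young 1 to 4 (exact permutation p = 0.00794, the smallest possible).

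**Figure D4:**
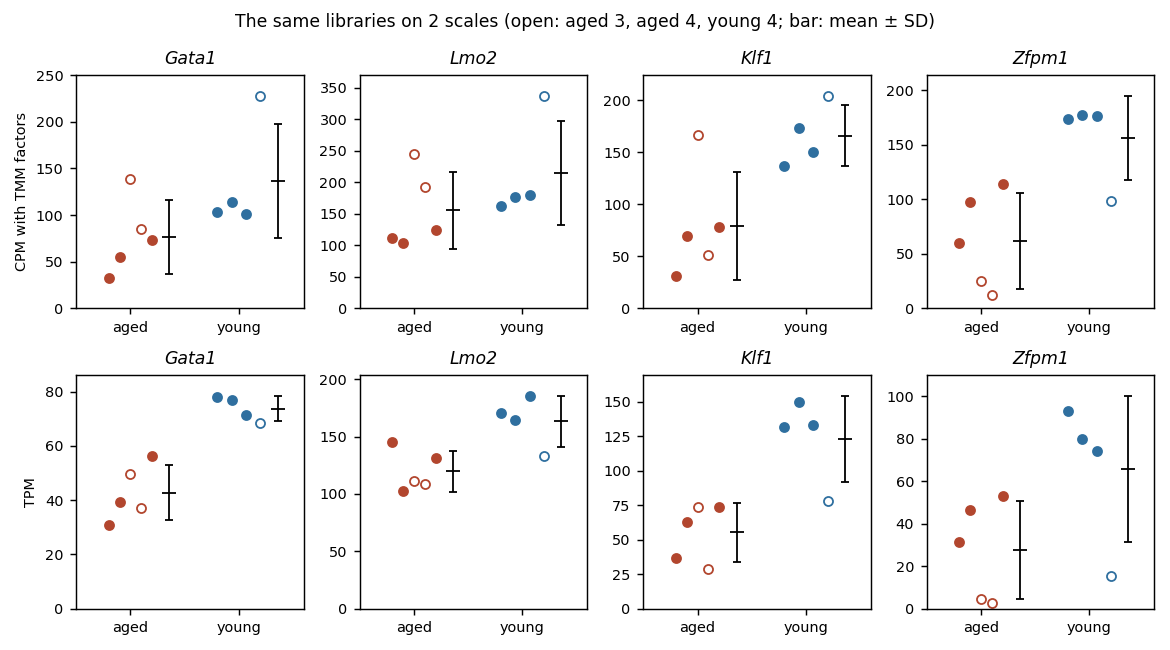
Gata1, Lmo2, Klf1 and Zfpm1 in each library on TMM-scaled CPM (upper row) and TPM (lower row), aged libraries left of young ones; open circles are aged 3, aged 4 and young 4, and bars are the mean ± SD. Young 4 was highest for Gata1 on CPM, at 228 CPM, and lowest of the young libraries on TPM, at 68.4 TPM.

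Per length, the members span about an order of magnitude. On the TPM scale Nfe2 was highest and Lmo2 next in either group, at 155 ± 33.8 and 119.7 ± 17.7 TPM in aged libraries and 204 ± 33.8 and 163 ± 22.0 TPM in young libraries (SD, n = 5 and 4). Bcl11a was lowest, at 12.9 ± 1.75 TPM in aged and 15.6 ± 2.6 TPM in young libraries. In aged libraries the order between these was Ldb1 (63.3 TPM), Klf1 (55.3), Gata1 (42.7), Tal1 (30.5), Zfpm1 (27.6), Gfi1b (26.7) and Epor (24.6). In young libraries it was Klf1 (123 TPM), Ldb1 (75.2), Gata1 (73.7), Zfpm1 (65.6), Gfi1b (57.0), Tal1 (50.2) and Epor (49.2). Neighbours in these orders overlapped in their ranges, except Lmo2 over Ldb1 in aged and Epor over Bcl11a in young libraries.

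Whether the members differed by unlike amounts was asked through the log2 ratio of each to Gata1 in the same library, in 9 exact two-sided permutation tests. No ratio passed at 0.05, before any adjustment over the 9. The largest differences, aged minus young, were −0.83 for Zfpm1 (exact p = 0.413) and 0.57 for Ldb1 (exact p = 0.0873). Those of Nfe2, Bcl11a and Lmo2 were 0.47, 0.46 and 0.41, and those of Klf1 and Epor −0.38 and −0.24. With arrangements drawn within the library sets, the exact p was 0.0333 for Ldb1 and 0.05 for Bcl11a, again unadjusted over the 9 ratios. The ratio of Zfpm1 to Gata1 was 1.81, 1.77, 0.185, 0.143 and 1.55 in aged 1 to 5, against 1.67, 1.56, 1.75 and 0.435 in young 1 to 4. Outside the 3-library set this ratio overlapped between the ages, whereas within that set it was several-fold lower in aged and young libraries alike.

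Other genes of these pathways were read from lists, with counts only, since no list was tested. In the fit with the 3-library set as a term, a gene was called lower in 1.31% and higher in 0.615% of all genes, and the median log2 fold change quoted for each list is from the fit on age alone, where no gene of any list was called. Without any 1 library other than aged 3 or aged 5, the fit with the term called 0 to 2 genes in all. Marker genes of red cell precursors came first. Of 31 globin, heme, membrane and surface genes listed, all 30 tested (all but Ahsp) lay below 0 (median −1.25), and 3 were called lower with the term. These were Tfrc, the receptor that takes up iron (mean 424 ± 136 CPM in aged and 777 ± 176 CPM in young libraries), Tmcc2 (mean 266 ± 111 CPM in aged and 786 ± 100.5 CPM in young libraries) and Dmtn, a protein of the membrane skeleton (mean 79.5 ± 33.6 CPM in aged and 225 ± 45.2 CPM in young libraries). Log2 fold changes with the term were −0.97 (SE 0.161, edgeR adjusted p = 0.0405) for Tfrc, −1.52 (SE 0.276, edgeR adjusted p = 0.0405) for Tmcc2 and −1.51 (SE 0.319, edgeR adjusted p = 0.0492) for Dmtn. Aged 5 lay below all young libraries for each, at 432 CPM for Tfrc, 406 CPM for Tmcc2 and 116 CPM for Dmtn. Other factors of red cell precursors had 13 of 13 below 0 (median −0.37), and E2f4, Foxo3 and E2f2 were called lower with the term. E2f2, a cell cycle factor, averaged 185 ± 53.2 CPM in aged and 349 ± 67.1 CPM in young libraries and had a log2 fold change of −0.84 (SE 0.157, edgeR adjusted p = 0.0406). Aged 5, at 273 CPM, lay above young 4, at 256 CPM.

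Genes for proteins that work beside the members followed. Partners of the GATA1 and TAL1 complex had 6 of 10 below 0 (median −0.17), and Tcf3, the E protein that pairs with TAL1, was the 1 called lower with the term, with a log2 fold change of −0.78 (SE 0.130, edgeR adjusted p = 0.0405). Gata2, which precedes GATA1 in progenitors, averaged 24.3 ± 3.17 CPM in aged and 21.9 ± 0.381 CPM in young libraries. It lies outside the naming rule and was chosen after its values were seen. Corepressor subunits used by GFI1B, BCL11A and FOG1 had 7 of 9 below 0 (median −0.20) and none was called. Partners and relatives of NF-E2 had 2 of 7 below 0 (median 0.10), and Mafk, a small Maf that dimerises with the NF-E2 large subunit, was called lower with the term, with a log2 fold change of −0.72 (SE 0.119, edgeR adjusted p = 0.0405). Aged 5 had 82.4 CPM of Tcf3 and 50.5 CPM of Mafk, below all young libraries for either gene. Factors of other blood lineages had 3 of 8 below 0 (median 0.17), with none called.

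Genes of erythropoietin signalling lay on both sides of 0, 10 of 22 below 0 (median 0.10). Socs3, an inhibitor that many cytokines induce, was called higher with the term, at a mean of 34.4 ± 18.4 CPM in aged and 10.1 ± 3.05 CPM in young libraries and a log2 fold change of 1.88 (SE 0.264, edgeR adjusted p = 0.0405). Tfr2, a partner of EPOR at the cell surface, Gab1, an adaptor, and Bcl2l1, which encodes the survival protein BCL-XL, were called lower. Tfr2 averaged 13.5 ± 4.71 CPM in aged and 30.9 ± 3.56 CPM in young libraries, with a log2 fold change of −1.17 (SE 0.190, edgeR adjusted p = 0.0405). Bcl2l1 averaged 94.7 ± 43.0 CPM in aged and 170.0 ± 81.5 CPM in young libraries, with one of −0.99 (SE 0.195, edgeR adjusted p = 0.0443). Aged 5 had 30.8 CPM of Socs3, above all young libraries, and 19.81 CPM of Tfr2 and 84.5 CPM of Bcl2l1, below all of them. The kinase gene Jak2 averaged 103 ± 10.9 CPM in aged and 110.1 ± 21.8 CPM in young libraries and Stat5a 35.7 ± 11.5 CPM in aged and 38.8 ± 7.68 CPM in young libraries, both picked out after their values were seen. Epo itself, the hormone's gene, had no count in any library.

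**Figure D5:**
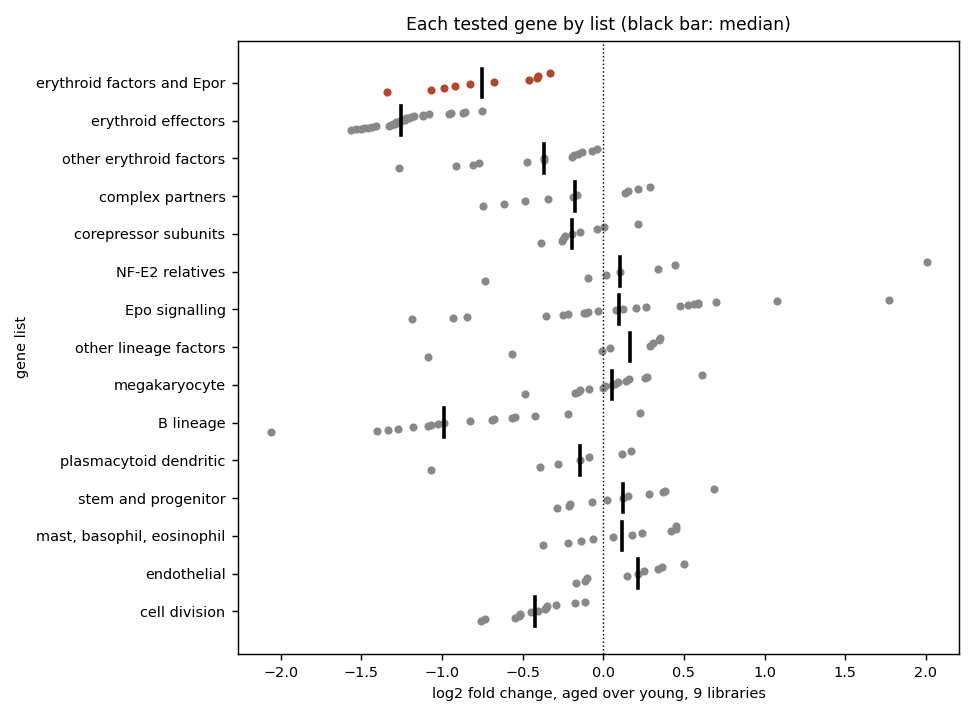
Log2 fold changes (aged over young, fit on age alone) of the members and 14 lists, each dot a gene and each black bar a median. The medians were −0.75 for the members, −1.25 for the globin, heme, membrane and surface genes and −0.99 for B lineage markers. Not shown are bone-forming, plasma cell and neutrophil markers, with medians of −1.24, 1.08 and 0.08.

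Several members are also expressed outside red cell precursors, so markers of other cells were read beside them. B lineage markers, beside Bcl11a, had 16 of 17 below 0 (median −0.99, none called), at a summed 133 to 875 CPM in aged and 588 to 663 CPM in young libraries. Outside the 3-library set, 14 of these 17 markers had every aged value below every young one, against 16.6% of genes, and 0 had the reverse. The median log2 fold change of these markers, refitted on those 6 libraries, was −1.42. Their sum was 133, 404, 875, 206 and 249.1 CPM in aged 1 to 5, where Bcl11a had 35.0, 35.2, 53.6, 32.7 and 34.2 CPM. Aged 3 was the highest aged library for both, and also for Gata1, Klf1, Tal1, Lmo2, Ldb1, Gfi1b and Epor, while Bcl11a stayed between 32.7 and 35.2 CPM in the other 4. The part of B lineage cells in the Bcl11a values was not tested. Plasmacytoid dendritic cell markers had 5 of 7 below 0 (median −0.14), at a summed 163 to 277 CPM in aged and 200.4 to 272 CPM in young libraries. Megakaryocyte markers, beside Gata1, Nfe2, Gfi1b and Zfpm1, had 6 of 15 below 0 (median 0.06), at a summed 1416 to 3103 CPM in aged and 1768 to 2589 CPM in young libraries, and mast cell, basophil and eosinophil markers had 4 of 10 below 0 (median 0.12). Stem and progenitor markers, beside Tal1 and Lmo2, had 4 of 11 below 0 (median 0.12), and endothelial markers 3 of 9 below 0 (median 0.22). No gene of these lists was called in either fit. Cell division genes had 14 of 14 below 0 (median −0.42), and Mcm2, Rrm2, Birc5 and Mcm3 were called lower with the term. Plasma cell markers had 0 of 6 below 0 (median 1.08), and Xbp1 and Prdm1 were called higher with the term. Bone-forming markers had 8 of 8 below 0 (median −1.24) and neutrophil markers 4 of 9 below 0 (median 0.08), with none called. None of these markers was at 0 in every library, and the part of these cells in the members' values was not tested.

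The genes with the profile most like a member's were found by the root mean square (RMS) difference of mean-centred log2 CPM over the 9 libraries, among 11527 genes with a mean level of 5 CPM or more. Nearest to Gata1 were Bcl2l1 (RMS difference 0.0874), Isca1, Ubac1, Pir and Odc1 (up to 0.152). Nearest to Epor were Rhag, a membrane protein of red cells (0.141), Dhrs11, Fam210b, Klf1 (0.168) and Tspo2 (up to 0.181). Nearest to Bcl11a were Irag2 (0.0706), Ift80, Apex2, Ak3 and Rnf139 (up to 0.103), none of them a member. Zfpm1 stood far from Gata1 over the 9 libraries, in place 10897 of 11527, and close to it over the 6 libraries outside the 3-library set, in place 16. The libraries share their scaling and the 3-library set, so these likenesses describe the samples.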

How the data were processed

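RNA sequencing of 5 aged and 4 young mouse libraries was read from 1 deposited table. Bowtie 0.12.2 and the build mm8 are named in the submitters' processing notes, with no role given; the quantifier and annotation are not given in the sources used here. The deposited estimated counts (expected counts) were made whole by rounding, and 0.252% at most of a library's counts lay in the 1542 genes with an ID and no symbol, which are in the totals. The deposited TPM values are per gene length and served for levels between genes and as another scale. The authors' deposited table also holds log2 fold changes and p-values of a comparison by DESeq2 (named in the file headers), which were copied and not recomputed.

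The test over all genes was edgeR's quasi-likelihood F test (version 4.0.16, R 4.3.3), with TMM factors, filterByExpr (minimum count 10, total 15) and Benjamini-Hochberg adjustment over 16576 genes at 0.05, for age alone, with the 3-library set (aged 3, aged 4, young 4) as a term, and within the other 6 libraries. DESeq2 1.42.0, limma-voom 3.58.1, other scalings and filters, a replicate block and each omission of 1 library were alternatives. Single members and ratios were tested by exact two-sided permutation of log2 CPM (prior count 2). Each fit was also run on its own simulated counts, with 100 genes changed 4-fold and 100 changed 2-fold. The age fit recovered 63 and 10, with 2 false calls among 16376 unchanged genes. Its counts had no set effect and a biological coefficient of variation of 0.464 for every gene. The fit with the term recovered 97 and 38, with 10 false calls. Its counts had a set effect and a coefficient of 0.287, so the 2 fits cannot be compared by these recoveries. No libraries were duplicates: young 1 and young 3, the most alike, differed by 15.3 chi-square units per gene. The members, lists and library set were chosen with earlier results of these data known. Named genes are the members, up to 4 called or otherwise up to 3 lowest-p genes per list, from which the text names a part, the 5 nearest profiles of Gata1, Epor and Bcl11a, genes at 0, Xist, Ddx3y and Eif2s3y. Promoters came from RefSeq, GRCm38.p6, of which only the 250 bases before the start were used, and gene IDs were not placed on mm8.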

Additional observations from a re-analysis of the deposited data

Results flagged for a closer look

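In groups of 4 or 5 libraries, the gap between the most extreme library and its neighbour was set against the group's range (Dixon's ratio, log2 CPM). Of 20 groups checked, 5 passed the 95% critical value. For separate groups chance passes about 1 in 20, but these share the same libraries. The passes are therefore not independent, and their number was not set against chance. The aged case was Bcl11a in aged 3, at 53.6 CPM (ratio 0.848). The 4 young cases were all young 4. It was high for Gata1 at 227.8 CPM (ratio 0.853), Lmo2 at 337.5 CPM (ratio 0.861) and Nfe2 at 431 CPM (ratio 0.846), and low for Zfpm1 at 98.9 CPM (ratio 0.963). On TPM, young 4 lay below the mean of young 1 to 3 for each of these 4 genes. Young 4 and aged 3 belong to the libraries with more ribosomal protein counts, and each had the highest hemoglobin share of its age. The part of either in these values was not tested.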

How the results depend on the processing

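No log2 fold change of a member changed direction under any alternative run. The log2 fold changes for age alone that moved by over 1.5 times when 1 library was left out were those of Gata1 (−0.46), Lmo2 (−0.16), Ldb1 (−0.13) and Nfe2 (−0.13), all without young 4. For age alone, the number of genes called was 360 with DESeq2, 13 with the replicate block, 2 within the 6 libraries, 319 with the library set as a term and 0 to 6 when 1 library was left out (6 without aged 5); members called were 0 in each, except 1 with the term. With the term, 319 genes and 1 member (Lmo2) were called. Genes called were 0 with upper quartile factors, 118 with library totals, 997 with no low-count filter, 1604 with DESeq2, 378 with limma-voom and 1489 with the replicate block. Members called were 0 with upper quartile factors or library totals, 6 with no filter, 8 with DESeq2, 2 with limma-voom and 9 with the block. Of all genes, 1.92% were called lower with no filter, 5.48% with DESeq2 and 1.8% with limma-voom. With the block, 937 of 16341 genes were called lower. Leaving out 1 library gave 0 to 1633 genes and 0 to 10 members. Library totals moved the median log2 fold change of all genes to 0.13, against 0.01 with TMM. The block used libraries 1 to 4 of each age. On those 8 libraries without the block, a comparison added after seeing the data, 6 genes were called for age alone, and 712 genes and 4 members with the term. Same-numbered libraries had correlated deviations for numbers 1, 2 and 4 (0.456, 0.554 and 0.739) but not for number 3 (−0.387), so the numbers were not taken as pairs. Number 3 joins aged 3, of the 3-library set, with young 3, outside it, and the correlations were not adjusted for the set. Aged 1, 2 and 4 correlated best with their own number. Of the 5 nearest profiles, 0 for Gata1, 0 for Epor and 1 for Bcl11a were shared with those over the 6 libraries. In single-member permutation tests, 11 of 30 alternatives crossed 0.05, and so did 1 of 27 for the ratios to Gata1 (Bcl11a on TPM, 0.56, exact p = 0.0159, against 0.317 on CPM). Each member had at least 234 counts in every library, and the effect of depth on the tests was not tested.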
